A study of Homo sapiens with 2 samples.

Results

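The proteasome genes were read on 2 arrays of MKN28 RNA, 1 labelled Sox2 and 1 labelled NC. MKN28 is an established human gastric adenocarcinoma line that is known as a misidentified derivative of the gastric line MKN74. The Sox2 cells carried a lentivirus with the transcription factor SOX2 and were kept under puromycin, per the labels' protocols, while the labels call the NC cells only a control and do not say whether they received a virus or the drug. Each group was 1 RNA sample on 1 array, so every difference is between 2 arrays and no test between the conditions was possible. All differences are given as log2 of the intensity in the Sox2 array minus that in the NC array, so positive values mean higher in Sox2.

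Members were the gene symbols that begin with PSM, followed by a letter from A to G and a number, on probe sets that name 1 gene. The pattern found 50 symbols, of which 42 are subunits, activators, inhibitors or assembly factors of the proteasome and 8 are neighbouring or interacting genes with a suffix in their symbol. The 42 members stood among 19775 genes in all, and the probe set with the highest mean log2 intensity represented each gene. The members were selected on their symbols and each probe set on its mean log2 intensity in both arrays, and the gene group was picked with results of these arrays known, so the values below are a description. Members with a value of at least 34.25, the median of all probe set values, in at least 1 array numbered 35, and they are compared with the 14253 genes that met the same filter. PSMA6, PSMB11, PSMC5, PSMD7, PSMD13 and PSME2 had no probe set that names 1 gene and were not analysed here.

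The proteasome is the protease that degrades ubiquitin-tagged proteins in the cytosol and nucleus. Its 20S core is a barrel of 2 outer alpha rings (PSMA genes) that gate the entry and 2 inner beta rings (PSMB genes) that hold the proteolytic sites. The 19S regulator sits on the alpha ring and consists of a base and a lid. The base has a ring of ATPases (PSMC genes) that unfold substrates and a few non-ATPase subunits, and the lid has further non-ATPase subunits, both with PSMD symbols. Other activators (PSME genes), the inhibitor PSMF1 and dedicated chaperones (PSMG genes and 3 of the PSMD genes) act on the core or help to build the particle. In many human cells the genes are transcribed together, in part through the transcription factor NFE2L1, which binds antioxidant response elements when proteasome activity falls short.

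SOX2, the transferred gene, read 172 in the Sox2 array and 123 in the NC array by its brightest probe set, a log2 difference of 0.49. Its 3 other probe sets differed by 0.31, -0.023 and -0.46, and the first and last of these lay under the filter in both arrays. Its target gene thus did not settle the label of the Sox2 array, and Sox2 and NC name the arrays by their labels throughout. EPCAM, the defining epithelial surface marker, was under the filter in both arrays at 4.96 in Sox2 and 6.32 in NC. KRT8 passed the filter at 50.25 in Sox2 and 44.64 in NC, and KRT18 at 70.1 in Sox2 and 88.5 in NC. KRT19 passed at 40.6 in Sox2 and 37.7 in NC, and CDH1 at 78.6 in Sox2 and 91.3 in NC. The other probe sets of KRT19 (20.6 in Sox2, 16.1 in NC) and CDH1 (22.6 in each) lay under the filter. Of 5 mesenchymal markers, all 5 passed the filter (VIM, CDH2, FN1, COL1A1 and COL1A2), with VIM at 5833 in Sox2 and 4288 in NC. Of the leukocyte markers, CD3E passed it at 82.0 in Sox2 and 71.4 in NC, while PTPRC and CD14 did not. The array's control probe sets for ACTB, a check of RNA integrity, read 103 in Sox2 and 91.1 in NC at the 3 prime end, against 4935 in Sox2 and 3582 in NC at the 5 prime end. Those for GAPDH read 184 in Sox2 and 195 in NC at the 3 prime end, against 1202 in Sox2 and 1451 in NC at the 5 prime end. Labelling from the poly-A tail usually gives the opposite order, and the part of these readings in the values below was not tested. The poly-A spike-ins, added to the RNA before labelling, read lower in the Sox2 array by all 24 of their probe sets (median log2 difference -0.75). The main values are relative to the bulk of genes, whose median difference past the filter was -0.0032, and scaling on the spike-ins would add 0.75 to each difference. With 1 array a group, only a technical error can be given: pairs of probe sets of 3471 genes put the SD of a single log2 difference at 0.28, which leaves out the spread between cultures and arrays.

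Over the 35 members past the filter the median log2 difference was -0.16, against -0.0032 over all genes, but this median hides opposite directions within the particle. The PSMB genes of the core were lower and most 19S subunits higher in the Sox2 array than in the NC array. All 10 PSMB genes lay below 0, with a median log2 difference of -0.35, and 8 of them by more than the technical SD of 0.28. Of the 12 subunit genes of the 19S regulator past the filter, assembly chaperones left out, 10 lay above 0 with a median of 0.41 over the 12, and 8 of them, 3 PSMC and 5 PSMD genes, by more than that SD. Over all genes past the filter, 49.6% lay above 0, 16.7% lay below 0 by more than the technical SD and 18.1% lay above 0 by more than it. Bright genes varied more widely. At or above the 95th percentile of probe set values, differences had a scaled median absolute deviation of 0.55, against 0.28 over all genes past the filter. In that range lay 20 members, 6 of them PSMB genes. Whether the 2 counts of 8 genes stand apart from genes of like brightness was not tested. The PSMA genes of the same core were divided, 4 above 0 and 2 below, with a median of 0.15. By whole class past the filter, 12 of 16 core genes lay below 0 (median -0.31). Of the 19S non-ATPases, chaperones included, 7 of 10 lay above 0 (median 0.40), and the 4 ATPases had a median of 0.36. Taking PSMB apart from PSMA and leaving out the chaperones are finer divisions than these classes, and they widen the contrast. Over all members found, including those under the filter, 10 of 14 subunit genes of the regulator lay above 0 and 13 of 17 core genes below 0. These directions hold relative to the bulk of genes: scaled on the spike-ins, 9 of 10 PSMB genes lay above 0, and with all probe sets of a gene averaged 8 of 9 PSMB genes past the filter lay below 0.

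**Figure D1:**
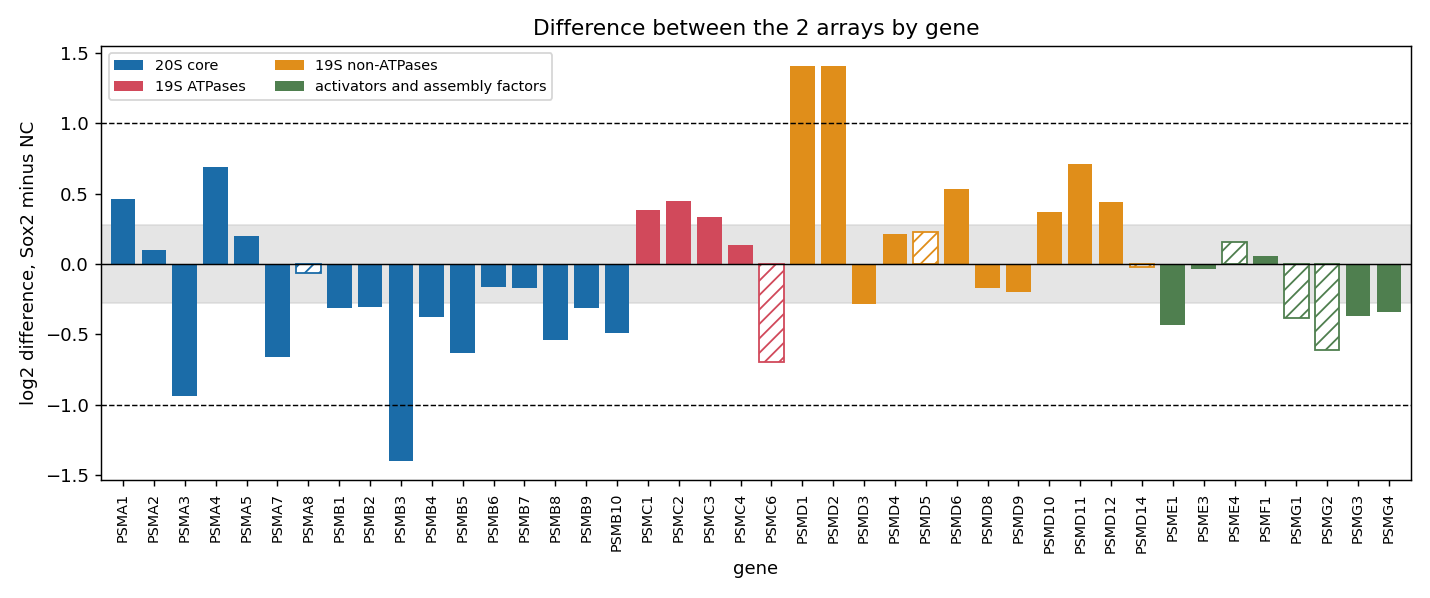
Log2 difference in intensity (Sox2 minus NC, vertical axis) for each of the 42 proteasome genes, coloured by class; hatched bars mark the 7 genes under the filter, the grey band is the technical SD of 0.28 on either side of 0, and dashed lines mark a 2-fold difference. Relative to the bulk of genes all 10 PSMB bars point downward, and PSMD1, PSMD2 and PSMB3 are the bars that cross the dashed lines.

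A 2-fold difference was reached by 3 members. Of the 35 past the filter, 2 were at least 2-fold higher in Sox2 (PSMD1 and PSMD2), against 2.05% of all genes, and 1 was at least 2-fold lower (PSMB3), against 0.645% of all genes. These shares rest on few genes, and bright genes differed more between the arrays. Among the 2235 genes at or above an intensity of 159, the 95th percentile of probe set values, 9.4% were at least 2-fold higher and 2.6% at least 2-fold lower, and 20 members lay in that range, including PSMD1, PSMD2 and PSMB3. The members' counts of 2 and 1 of 20, or 10.0% and 5.0%, rest on so few genes that they do not stand apart from bright genes in general. At 1.5-fold, 4 members were higher (PSMA4, PSMD1, PSMD2 and PSMD11), against 6.46% of all genes past the filter, and 4 were lower (PSMA3, PSMA7, PSMB3 and PSMB5), against 3.77%.

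**Figure D2:**
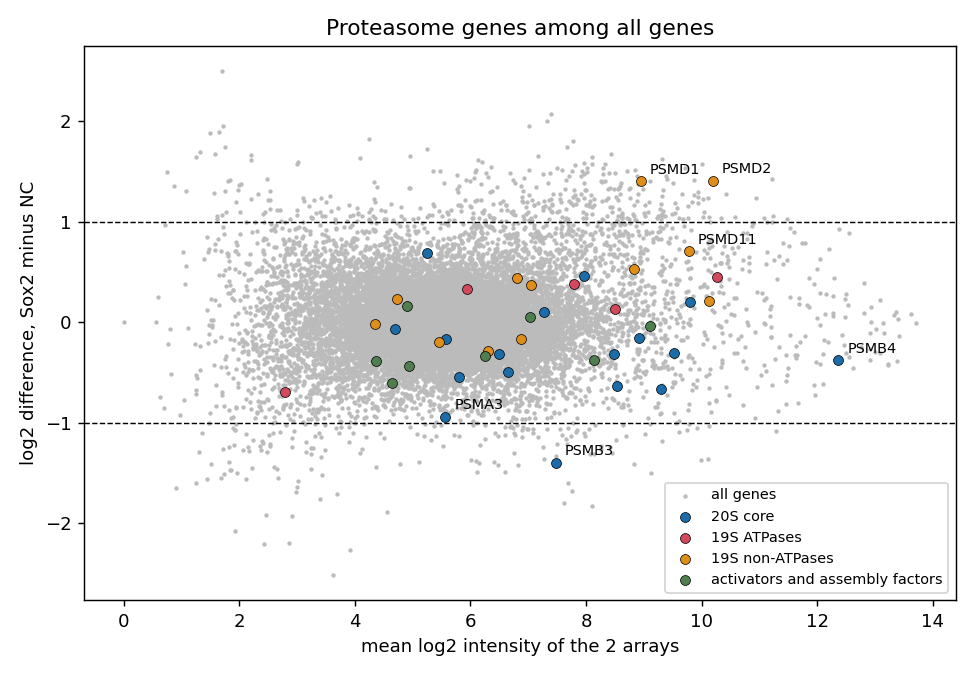
Log2 difference (Sox2 minus NC, vertical axis) against the mean log2 intensity of both arrays (horizontal axis) for all genes in grey and the 42 proteasome genes in colour by class, with dashed lines at a 2-fold difference. The spread of all genes widens at high intensity, where PSMD1 and PSMD2 lie at 1.40 and 1.41.

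The alpha ring of the core, which controls access to the proteolytic chamber, went both ways. PSMA1 read 292 in Sox2 and 213 in NC, a difference of 0.46, and its other probe sets lay under the filter. PSMA2 read 161 in Sox2 and 150 in NC (0.099), with 0.24 by its other probe set, and PSMA5 read 955 in Sox2 and 832 in NC (0.20), both within the technical SD. PSMA4 read 48.3 in Sox2 and 29.9 in NC (0.69), so it passed the filter only through the Sox2 array and had to differ upward to be counted.

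The other alpha genes lay below 0. PSMA7 read 503 in Sox2 and 795 in NC, 1.58-fold lower, by a probe set of the type that can cross-hybridise. Its other probe set, under the filter, read 21.0 in Sox2 and 32.5 in NC (-0.63). PSMA3 read 34.2 in Sox2 and 65.7 in NC, 1.92-fold lower and just short of the 2-fold size, and it passed the filter only through the NC array. A second probe set, at 28.8 in Sox2 and 43.9 in NC, also passed through NC alone and so had to read lower to be counted. The third, under the filter, lay on the other side at 28.9 in Sox2 and 16.6 in NC (0.80), and with all 3 averaged the difference was -0.25. PSMA8, the form of the alpha ring found in testis, was under the filter at 25.3 in Sox2 and 26.5 in NC.

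The 3 catalytic beta subunits of the constitutive core were lower in Sox2, by unequal amounts. PSMB5, which carries the chymotrypsin-like site and is the main target of bortezomib, read 300 in Sox2 and 464 in NC, a difference of -0.63 or 1.55-fold lower. PSMB6, with the caspase-like site, read 459 in Sox2 and 513 in NC (-0.16), and PSMB7, with the trypsin-like site, read 44.9 in Sox2 and 50.6 in NC (-0.17), both within the technical SD. A second PSMB7 probe set lay far under the filter at 8.46 in Sox2 and 8.91 in NC, and with both averaged PSMB7 did not pass it. PSMB8, PSMB9 and PSMB10 replace these subunits in the immunoproteasome, which interferon induces and which cuts peptides for antigen presentation. PSMB8 read 46.4 in Sox2 and 67.7 in NC (-0.54), PSMB9 80.8 in Sox2 and 101 in NC (-0.32), and PSMB10 84.3 in Sox2 and 119 in NC (-0.49). All 3 were thus lower by more than the technical SD and by less than 1.5-fold.

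Beta subunits without a proteolytic site were also lower, PSMB3 most of all. PSMB3 read 110 in Sox2 and 289 in NC, 2.63-fold lower, and has a single probe set, so no second reading of it exists here. PSMB4 read 4623 in Sox2 and 6007 in NC (-0.38) by its brightest probe set. The 2 other PSMB4 probe sets showed a larger difference in the same direction, at 326 in Sox2 and 619 in NC (-0.93) and at 222 in Sox2 and 410 in NC (-0.89). PSMB1 read 320 in Sox2 and 397 in NC (-0.31), with 133 in Sox2 and 174 in NC (-0.39) by its second probe set. PSMB2 read 659 in Sox2 and 814 in NC (-0.30), but a fainter probe set that also passed showed 41.1 in Sox2 and 40.9 in NC, a difference of 0.0084. Its other probe sets, under the filter, also lay above 0, at 25.1 in Sox2 and 12.4 in NC (1.02) and by 0.14. With probe sets averaged, PSMB2 was the PSMB gene that lay above 0.

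**Figure D3:**
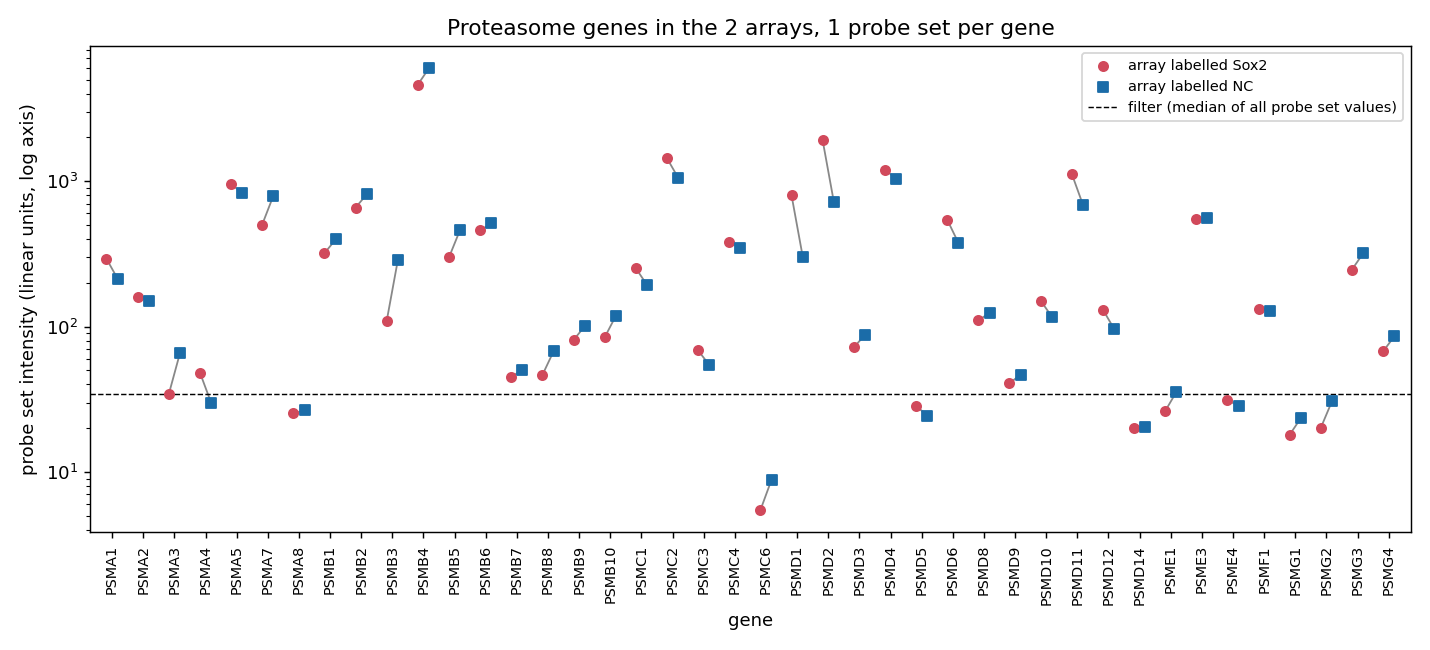
Probe set intensity (vertical log axis, linear units) of each of the 42 genes in the Sox2 array (red circles) and, to its right, the NC array (blue squares), with a dashed line at the filter of 34.25. The square lies above the circle for all 10 PSMB genes and below it for PSMC1 to PSMC4; heights of different genes cannot be compared, since probe sets bind with different strength.

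The ATPases of the 19S base, which pull substrates apart and thread them into the core, were slightly higher in all 4 cases past the filter, though PSMC4 lay below 0 (-0.12) after quantile normalization and PSMC2 (-0.17) with its probe sets averaged. PSMC1 read 252 in Sox2 and 193 in NC (0.38), PSMC2 1440.4 in Sox2 and 1056 in NC (0.45), PSMC3 68.5 in Sox2 and 54.4 in NC (0.33), and PSMC4 382 in Sox2 and 347 in NC (0.14). The first 3 exceed the technical SD of 0.28 by little, and none reached 1.5-fold. PSMC6 lay far under the filter at 5.45 in Sox2 and 8.84 in NC and is not read further. PSMC2 has 2 further probe sets, both under the filter and both lower in Sox2, at 10.1 in Sox2 against 14.6 in NC and at 14.8 in Sox2 against 20.1 in NC. Without probe sets of the types that can cross-hybridise or match several transcripts, only PSMC4 remained of the class.

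The 3 base subunits that are not ATPases were higher, and they held both of the largest differences. PSMD2, a scaffold that docks ubiquitin shuttle proteins and a deubiquitinase, read 1912 in Sox2 and 721 in NC, 2.65-fold higher, by its single probe set. PSMD1, the other large scaffold of the base, read 802 in Sox2 and 303 in NC, also 2.65-fold higher, and its second probe set read 320 in Sox2 and 92.7 in NC, a difference of 1.79. PSMD4, a ubiquitin receptor, read 1204 in Sox2 and 1041 in NC (0.21). All 4 of its probe sets lay above 0, with differences between 0.087 and 0.43.

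The lid was mixed, with 3 of its 5 genes past the filter above 0. PSMD11, a scaffold of the lid that has been linked to high proteasome activity in human embryonic stem cells, read 1126 in Sox2 and 689 in NC, 1.64-fold higher, but its second probe set, at 52.2 in Sox2 and 51.3 in NC, differed by only 0.025. PSMD6 read 544 in Sox2 and 377 in NC (0.53), and PSMD12 131 in Sox2 and 96.5 in NC (0.44). PSMD3 read 71.8 in Sox2 and 87.7 in NC (-0.29), and PSMD8 110 in Sox2 and 124 in NC (-0.17). PSMD14, the metalloprotease that removes ubiquitin chains from substrates, was under the filter at 20.2 in Sox2 and 20.5 in NC. The lid subunit SEM1, whose symbol falls outside the pattern, read 53.0 in Sox2 and 64.8 in NC (-0.29), and the base receptor ADRM1 46.0 in Sox2 and 42.8 in NC (0.10).

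Chaperones of the base, which carry PSMD symbols but leave the finished particle, showed no common direction. PSMD10, also known as the oncoprotein gankyrin, read 151 in Sox2 and 117 in NC (0.37). PSMD5 was under the filter at 28.5 in Sox2 and 24.4 in NC (0.23). PSMD9 read 40.7 in Sox2 and 46.7 in NC (-0.20) by its brightest probe set but 49.7 in Sox2 and 31.2 in NC (0.67) by the other, so its direction is not settled.

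Activators and factors that build the core lay mostly below 0, by small amounts. Of 8 found, 5 passed the filter, 4 of these below 0, with a median of -0.34. PSME1, a subunit of the interferon-induced 11S activator, read 26.2 in Sox2 and 35.5 in NC (-0.44), the value nearest above the filter, which it passed only through the NC array. PSME3, the nuclear 11S activator, read 545 in Sox2 and 560 in NC (-0.039). The inhibitor PSMF1 read 133 in Sox2 and 128 in NC (0.055). PSME4, a large activator, lay just under the filter at 31.4 in Sox2 and 28.2 in NC (0.16).

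The 4 PSMG genes encode chaperones that pair up to assemble the alpha ring, and all 4 read lower in Sox2. PSMG3 read 247 in Sox2 and 319 in NC (-0.37) and PSMG4 67.5 in Sox2 and 85.5 in NC (-0.34), with a second PSMG4 probe set at 32.8 in Sox2 and 42.9 in NC (-0.39). PSMG1, at 18.02 in Sox2 and 23.5 in NC (-0.38), and PSMG2, at 20.1 in Sox2 and 30.7 in NC (-0.61), lay under the filter. The differences of all 4 lie within the range of the PSMB genes, -1.40 to -0.16. No detection call could be made at the intensities of PSMG1 and PSMG2.

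**Figure D4:**
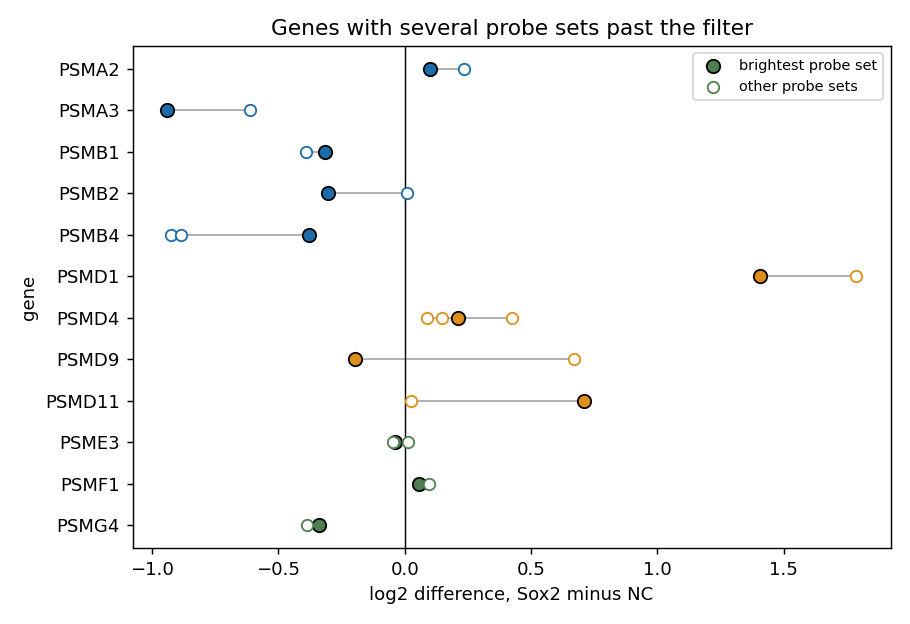
Log2 difference (Sox2 minus NC, horizontal axis) of every probe set past the filter for the 12 proteasome genes with at least 2 of them; filled points are the brightest probe set, open points the others. For 9 of the 12 genes all points lie on 1 side of 0, and those of PSMD1 lie highest.

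Several probe sets of 1 gene gave a second reading within the same arrays. At least 2 probe sets met the filter for 12 members, and for 9 of these every one lay on the same side of 0. That was so for 43.1% of the 5495 genes with several. The exceptions were PSMB2, PSMD9 and PSME3. Both probe sets of PSMA3 and 1 each of PSMG4 and PSMD9 passed the filter through a single array, which fixed their side. Among probe sets at or above the filter in both arrays, a restriction added after seeing the data, 7 of 9 members lay on 1 side, against 44.9% of 4598 genes. In both comparisons the genes were not matched to the members in brightness or in number of probe sets. Probe sets of 1 gene share the RNA and the array, and some share sequence, so this agreement is not replication of the conditions. Of the other 8 symbols that the pattern matched, none reached 1.5-fold, and PSMC3IP, a meiotic recombination factor that binds an ATPase of the base, differed most at 113 in Sox2 and 77.2 in NC (0.55).

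Genes that work around the proteasome were taken from a list of 40, of which 34 had a probe set that names 1 gene and 29 passed the filter. Of these 29, 2 were at least 2-fold higher in Sox2, against 2.05% of all genes, and none was lower by that size, against 0.645%, with a median of 0.085. With probe sets averaged none reached 2-fold, so the count rests on the choice of probe set. Both genes, UBA1 and ECPAS, lay above an intensity of 159, where 9.4% of genes were at least 2-fold higher. The count therefore does not set the list apart from bright genes. UBA1, the main enzyme that activates ubiquitin, read 1533 in Sox2 and 626 in NC, 2.45-fold higher, but its second probe set read 48.4 in Sox2 and 51.6 in NC (-0.093). ECPAS, an adaptor and scaffold of the proteasome, read 506 in Sox2 and 229 in NC, 2.21-fold higher. Its second probe set (0.38) passed the filter only through the Sox2 array and so had to read higher. UBA6, the other ubiquitin-activating enzyme, read 45.2 in Sox2 and 24.4 in NC (1.85-fold), above the filter through the Sox2 array alone.

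ZFAND5, a zinc finger protein that stimulates the proteasome and takes part in muscle wasting in mice, read 1448 in Sox2 and 837 in NC (1.73-fold), with a further probe set at 0.53. Another read 32.8 in Sox2 and 45.5 in NC (-0.47), so it passed the filter only through the NC array and had to read lower. FAF1, a cofactor of the unfoldase VCP, read 1009 in Sox2 and 611 in NC (1.65-fold), with -0.32 by another probe set. VCP itself read 114 in Sox2 and 97.9 in NC (0.22). Its second probe set read 64.8 in Sox2 and 33.2 in NC (0.96), so it passed the filter only through the Sox2 array and had to read higher. NFE2L1, the factor that raises proteasome transcription when activity is short, was lower by all 3 of its probe sets, at 116 in Sox2 and 159 in NC (-0.46), and by -0.14 and -0.38 in the others. POMP, which matures the core, was under the filter at 25.4 in Sox2 and 27.1 in NC. At 1.5-fold, 5 of the 29 list genes past the filter were higher, against 6.46% of all genes, and none was lower, against 3.77%, a share that over 29 genes comes to about 1 gene. The 1.5-fold shares among bright genes, which differed more, were not counted.

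Promoters show what the members share apart from their intensities. RefSeq promoters of GRCh38.p14, 250 bases before to 50 after a start, were matched by symbol for 36 of the 42 members, in 43 windows. Their median GC content was 62.0%, against 58.7% over 35116 windows of all genes, and their median count of CG pairs was 22 against 14. The antioxidant response element core (TGACNNNGC, either strand) stood in 13 of 36 members, or 36.1%, against 16.1% of 27305 genes. The ETS motif (CCGGAAGT) stood in 22.2% of members, against 4.95% of genes, and the GC box (GGGCGG) in 66.7%, against 48.3%. The CCAAT box stood in 47.2% against 39.7%. The first SOX motif (ACAAAG) stood in 3 of 36 members, or 8.33%, against 18.97% of genes. The second (ACAATGG) stood in 1 of 36, or 2.78%, which is near the 3.85% of all genes. A match is a run of letters and does not show binding, and GC content alone changes how often such letters occur. The 27305 genes are all those with a RefSeq promoter, not only genes on the arrays. They were not matched to the members in GC content or CG pairs, so the higher shares cannot be called particular to the proteasome.

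The 250 bases before the start are shown for the 3 members with a 2-fold difference, PSMD1 and PSMD2, which were higher in Sox2, and PSMB3, which was lower. Capitals mark every searched motif on either strand. The PSMD1 stretch lies at chr2:231056617-231056866, that of PSMD2 at chr3:184298991-184299240 and that of PSMB3 at chr17:38752491-38752740, all on the plus strand. PSMD2 has a second RefSeq start, whose window holds none of the searched motifs and is not shown.
PSMD1: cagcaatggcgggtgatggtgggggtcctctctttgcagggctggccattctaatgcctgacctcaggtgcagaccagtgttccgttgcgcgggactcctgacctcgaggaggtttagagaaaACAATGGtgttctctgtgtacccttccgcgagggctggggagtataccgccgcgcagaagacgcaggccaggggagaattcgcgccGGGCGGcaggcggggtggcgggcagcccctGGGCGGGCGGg
PSMD2: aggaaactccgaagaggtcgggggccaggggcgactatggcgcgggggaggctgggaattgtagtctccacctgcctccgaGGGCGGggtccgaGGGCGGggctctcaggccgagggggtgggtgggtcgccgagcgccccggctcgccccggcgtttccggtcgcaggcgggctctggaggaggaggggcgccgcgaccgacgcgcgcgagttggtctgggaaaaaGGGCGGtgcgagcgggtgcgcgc
PSMB3: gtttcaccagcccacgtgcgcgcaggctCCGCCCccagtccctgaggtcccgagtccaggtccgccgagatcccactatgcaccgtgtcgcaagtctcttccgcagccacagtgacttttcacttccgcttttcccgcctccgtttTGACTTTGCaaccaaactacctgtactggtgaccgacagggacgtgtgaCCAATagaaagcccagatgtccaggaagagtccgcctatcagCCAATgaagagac

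The stretches have no searched motif in common other than the GC box, which PSMD1 and PSMD2 hold 3 times each, the last 2 of PSMD1 overlapping, and PSMB3 once on the opposite strand. PSMD1 holds the second SOX motif 127 bases before the start and is the only member of the 36 matched with it. PSMB3 holds the antioxidant response element core 104 bases before the start and 2 CCAAT boxes closer to it. PSMD1 also holds the antioxidant response element core, in the 50 bases after its start and so outside the printed stretch. By class, the antioxidant response element core stood in 3 of 13 core genes, 1 of 5 ATPases, 5 of 11 non-ATPases and 4 of 7 activators and assembly factors.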

How the data were processed

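Biotin-labelled cRNA from 1 sample of each group was read on an Affymetrix array with 54675 probe sets. Per the submitters' processing notes the authors used RMA. Neither its version nor its settings were given in the sources used here, nor whether a step followed. The deposited values of the 2 arrays did not share 1 distribution. Quantile normalization here moved the genes at least 2-fold higher from 292 to 213 and those lower from 92 to 117. The deposited numbers are linear intensities, 1 per probe set and array, and were log2-transformed here without further scaling. Genes were named from the platform annotation, with symbols updated by gene identifier from RefSeq (GRCh38.p14): 19735 of 19777 identifiers matched, 41091 probe sets named 1 gene, 1801 several and 11721 none.

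The filter, the gene value and the 2-fold size were as described above, and the technical SD is the scaled median absolute deviation of the difference between both probe sets of a gene, divided by the square root of 2. The members, the classes, the motifs and the list of 40 pathway genes were chosen with earlier results of these arrays known. Named were all members of at least 1.5-fold, the catalytic and immunoproteasome subunits, the ATPases, PSMD2, PSMD4 and PSMD14, the PSME, PSMF and PSMG genes and the largest and smallest difference of each class; the remaining members were added after their values were seen. Of the pathway genes, those of at least 1.5-fold and NFE2L1, VCP and POMP were named, while SEM1 and ADRM1 were added later. Alternatives covered the choice of probe set, the filter, the scaling and the fold size. The counting was run on simulated data with a single probe set per gene and equal noise at all intensities, smaller than the technical SD. It therefore does not check the counts among bright genes or the choice of probe set. The number of arrays limits the precision. Python 3.11.15, numpy 2.4.6, pandas 2.3.3, SciPy 1.17.1, statsmodels 0.14.6 and matplotlib 3.10.9 were used.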

Additional observations from a re-analysis of the deposited data

Results flagged for a closer look

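Probe sets that name a proteasome gene together with another gene entered no comparison. Of 5 such probe sets, 3 passed the filter, and 1 of them was far higher in the Sox2 array, at 232 in Sox2 and 77.1 in NC, a log2 difference of 1.59 or 3.00-fold. It names an alpha ring gene and another gene, so the signal cannot be given to either. The 2 others past the filter differed by -0.36 and 0.69.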

How the results depend on the processing

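No paired analysis was possible because each group is 1 array and no result comes from a test. A single gene counted as moved past 0.28 on the log2 scale, a median past that value over the square root of its number of genes, and the cause of a shift was not tested unless the setting itself removed genes. PSMD1 (where a probe set of it was left), PSMD2 and PSMB3 kept at least 2-fold under all settings run on the 2-fold size, except PSMB3 under spike-in scaling. The 19S medians stayed above 0 under all settings run, and the core and PSMB medians below 0 under all but spike-in scaling, while the median of all members, -0.16, is not stable. Averaging all probe sets left 0 pathway genes at least 2-fold higher, against 2, turned the median of all members to 0.050 and gave 0.25 for the 19S non-ATPases, -0.49 for PSMB and -0.21 for activators and assembly factors. The probe set with the largest difference gave -0.013 for all members, -0.39 for the core and -0.49 for PSMB. Leaving out probe sets ending in _x_at or _s_at left 23 members: 1 at least 2-fold higher, 0.14 for the 1 ATPase left, 0.087 for the 7 non-ATPases and -0.49 for PSMB. With no filter the medians were -0.11 for all members and 0.30 for non-ATPases, and with the filter at the 75th percentile -0.039 for all members and -0.19 for activators and assembly factors. With the filter at the 95th percentile, added after seeing the data, they were 0.12 for all members, 0.71 for non-ATPases and -0.21 for activators and assembly factors. Lowess centring gave -0.42 for the core and -0.46 for PSMB, and quantile normalization -0.47 for the core, -0.50 for PSMB and 0.31 for non-ATPases, with 1 of 4 ATPases (PSMC4) below 0; with averaging it was PSMC2, at -0.17. At 1.5-fold, 4 members were higher and 4 lower. Spike-in scaling, also added later, gave 11 of 36 members at least 2-fold higher and 0 lower, against 20.8% and 0.0195% of all genes and a median of 0.76 over all genes, with medians of 0.76 for all members, 0.44 for the core, 1.11 for ATPases, 1.12 for non-ATPases, 0.71 for activators and assembly factors, 0.90 for PSMA and 0.40 for PSMB. Over all genes, 292 were at least 2-fold higher and 92 lower (76.0% higher among those counted), against 63 and 43 with averaging (59.4%) and 213 and 117 with quantile normalization (64.5%). No detection call was made, so values near or under the filter carry the least weight.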
